A study of Mus musculus with 48 samples.

Results

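The genes described here are 49 protein-coding genes of the mouse cerebellum whose messenger RNA (mRNA) was lower after rotarod training and higher when Chd4 was deleted. They were chosen from 322 genes that the authors' tables list in both comparisons; each table holds only genes below an adjusted p of 0.05 in the authors' test, and a gene it leaves out has no value. A member had to be annotated as protein coding in the cKO table, to have a lower mean in rotarod than in rest libraries and a higher mean in cKO than in WT libraries. All 49 members were protein coding in the rotarod table as well. Arc, Gabrq and members of large named families (Slc, Zfp, Kcn, Sox and others) were left out. Of the 322 genes, 65 had this pair of directions, 57 of them were protein coding in the cKO table, and 8 of those fell under the names left out. Hist2h2bb (0.75 and -1.11 log2 CPM in cKO minus WT and in rotarod minus rest) was left out because the cKO table calls it a lincRNA and the rotarod table a protein-coding gene.

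Both comparisons chose the members, so their differences are given as a description and without tests. The series has 48 samples, of which 16 are used: mRNA of 4 cKO, 4 WT, 4 rotarod and 4 rest cerebella at postnatal days 27 to 28. The cKO mice carried a conditional knockout of Chd4 and the WT mice were wild type; the labels do not name the driver of the deletion or the cells it reaches. Rotarod mice were wild type and had been trained on a rotarod, a turning rod used to teach and score balance, and rest mice were wild type and stayed in the home cage. The labels do not say whether replicates were separate animals. Whole cerebella were sequenced in bulk, so fewer cells of a type and less RNA per cell cannot be told apart.

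Chd4 is the ATPase of NuRD, a complex that joins nucleosome remodelling with histone deacetylation and is known for shutting down promoters and enhancers. In granule neurons, the small excitatory cells that make up most cerebellar neurons, activity-dependent genes are switched on by calcium and cyclic AMP signals and switched off again afterwards. Best known among such genes are those that rise with training. The genes described here have the opposite direction with training and were higher without Chd4.

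Levels are log2 CPM, read counts relative to library size, which the authors computed with a small prior count. Differences are in log2 CPM ± SE from a limma fit over every gene of a table. A fold is 2 to the power of such a difference, which understates the change of genes with few reads. Because a table holds only genes that passed the authors' test, that choice can make differences too large and SE too small. Effective depth, read from the step of 1 read in the values, was 13.72 to 15.56 M reads in the cKO and WT libraries and 13.74 to 16.75 M reads in the rotarod and rest libraries. Chd4 itself was at 7.90 to 8.06 log2 CPM in cKO and 8.31 to 8.45 in WT libraries, a difference of -0.44 ± 0.06, and is not listed in the rotarod table. The rotarod table heads its columns by number and group, so its libraries are called by column.

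The promoters of 5 members are shown because they belong to the genes with the largest fitted cKO differences (Calca, Vipr1 and Rwdd3) or carry the full cyclic AMP response element, the site known for the factor CREB (Wsb1 and Zscan18). Each run is 250 bases before and 50 bases after the annotated start, 5′ to 3′ on the gene's strand, from RefSeq on GRCm38.p6. The windows are chr7:114636308-114636607 on the minus strand for Calca, chr9:121642466-121642765 on the plus strand for Vipr1, chr3:121171646-121171945 on the minus strand for Rwdd3, chr11:79254646-79254945 on the minus strand for Wsb1 and chr7:12803589-12803888 on the minus strand for Zscan18. Capitals mark the motifs searched on both strands, so that CCGCCC is the GC box GGGCGG on the other strand.
Calca: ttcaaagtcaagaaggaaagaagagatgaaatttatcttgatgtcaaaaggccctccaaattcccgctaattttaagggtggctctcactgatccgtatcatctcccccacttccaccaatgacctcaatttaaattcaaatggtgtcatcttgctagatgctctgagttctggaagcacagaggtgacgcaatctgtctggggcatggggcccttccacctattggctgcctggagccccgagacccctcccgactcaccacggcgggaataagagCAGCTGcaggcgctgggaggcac
Vipr1: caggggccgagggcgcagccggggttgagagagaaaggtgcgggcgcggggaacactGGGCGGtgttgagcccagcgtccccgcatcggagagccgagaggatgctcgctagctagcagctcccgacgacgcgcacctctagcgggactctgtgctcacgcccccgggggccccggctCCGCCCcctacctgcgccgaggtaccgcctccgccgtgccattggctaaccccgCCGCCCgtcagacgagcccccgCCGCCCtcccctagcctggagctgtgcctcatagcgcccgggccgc
Rwdd3: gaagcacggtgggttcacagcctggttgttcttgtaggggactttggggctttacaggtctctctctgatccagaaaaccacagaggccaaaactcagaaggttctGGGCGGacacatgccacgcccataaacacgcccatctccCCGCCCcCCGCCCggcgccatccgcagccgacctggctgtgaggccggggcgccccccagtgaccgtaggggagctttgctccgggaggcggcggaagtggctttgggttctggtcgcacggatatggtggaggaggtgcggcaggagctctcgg
Wsb1: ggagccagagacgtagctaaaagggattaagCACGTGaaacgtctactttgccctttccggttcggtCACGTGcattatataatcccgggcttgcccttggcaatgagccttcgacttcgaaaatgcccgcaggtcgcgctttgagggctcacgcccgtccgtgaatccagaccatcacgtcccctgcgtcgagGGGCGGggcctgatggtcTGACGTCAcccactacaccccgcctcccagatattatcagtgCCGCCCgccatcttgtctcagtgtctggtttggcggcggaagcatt
Zscan18: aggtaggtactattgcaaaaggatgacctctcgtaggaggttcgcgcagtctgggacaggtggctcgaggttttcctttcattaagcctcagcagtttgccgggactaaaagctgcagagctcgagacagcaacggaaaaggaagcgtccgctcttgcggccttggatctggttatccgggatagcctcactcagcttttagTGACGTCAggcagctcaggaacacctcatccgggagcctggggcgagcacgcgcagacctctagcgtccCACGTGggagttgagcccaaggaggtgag

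The windows differed in what they held. Wsb1 and Zscan18 each had a TGACGTCA, at -38 and -48 from the start, and each also had CACGTG, at -219 and -183 in Wsb1 and at 22 in Zscan18. Vipr1 had 4 GC boxes and Rwdd3 had 3, while Calca had none and a single CAGCTG at 28. RefSeq windows were found for 39 of the 49 members, and shares below count the first window of each gene.

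TGACGTCA stood in 2 of 39 member promoters (5.13%), against 3.22% of genes higher in cKO, 4.07% of genes lower in rotarod and 1.88% of 27025 genes with a window. The GC box GGGCGG stood in 25 (64.1%), against 63.5%, 56.1% and 35.9% of the same 3 sets. CACGTG was in 5 (12.8%), against 8.59%, 7.72% and 7.24%. CAGCTG was in 5 (12.8%), against 18.9%, 17.1% and 16.1%. The TATA box TATAAA was in 5 (12.8%), against 7.11%, 6.10% and 14.2%, and the AP-1 site TGANTCA, known for Fos and Jun, was in 2 (5.13%), against 5.52%, 4.07% and 7.93%. The median GC content was 58.7% in members, 61.3% in genes higher in cKO, 59.3% in genes lower in rotarod and 52.7% in all genes. An observed to expected CpG ratio of 0.6 or more was found in 23 of 39 member promoters (59.0%), against 58.9%, 70.3% and 36.5%. By GC box and CpG content, member promoters lay near the set of genes higher in cKO, which includes the members. The genes higher in cKO and those lower in rotarod were also above all genes with a window. Lying above that set is thus not particular to the members. These are letter matches, and the counts of 2 and 5 are small.

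The median difference of the members was 0.46 in cKO minus WT (quartiles 0.32 and 0.95) and -0.46 in rotarod minus rest (quartiles -0.61 and -0.37). All listed genes higher in cKO had a median of 0.53, and all listed genes lower in rotarod had -0.46. In the cKO comparison 11.0% of about 27100 tested features were listed as higher, and in the rotarod comparison 1.31% of about 26900 were listed as lower; membership in both is the rule itself. At least 2-fold differences were seen in 11 members in cKO, where 24.2% of all genes higher in cKO reached this, and by the fitted values in 4 members with training (5 with Fgf20 at the bound given below), where 11.3% of all genes lower in rotarod did. Differences below 1.25-fold were found in 13 members in cKO and 6 with training. Most members thus differed by less than 2-fold in either comparison.

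**Figure D1:**
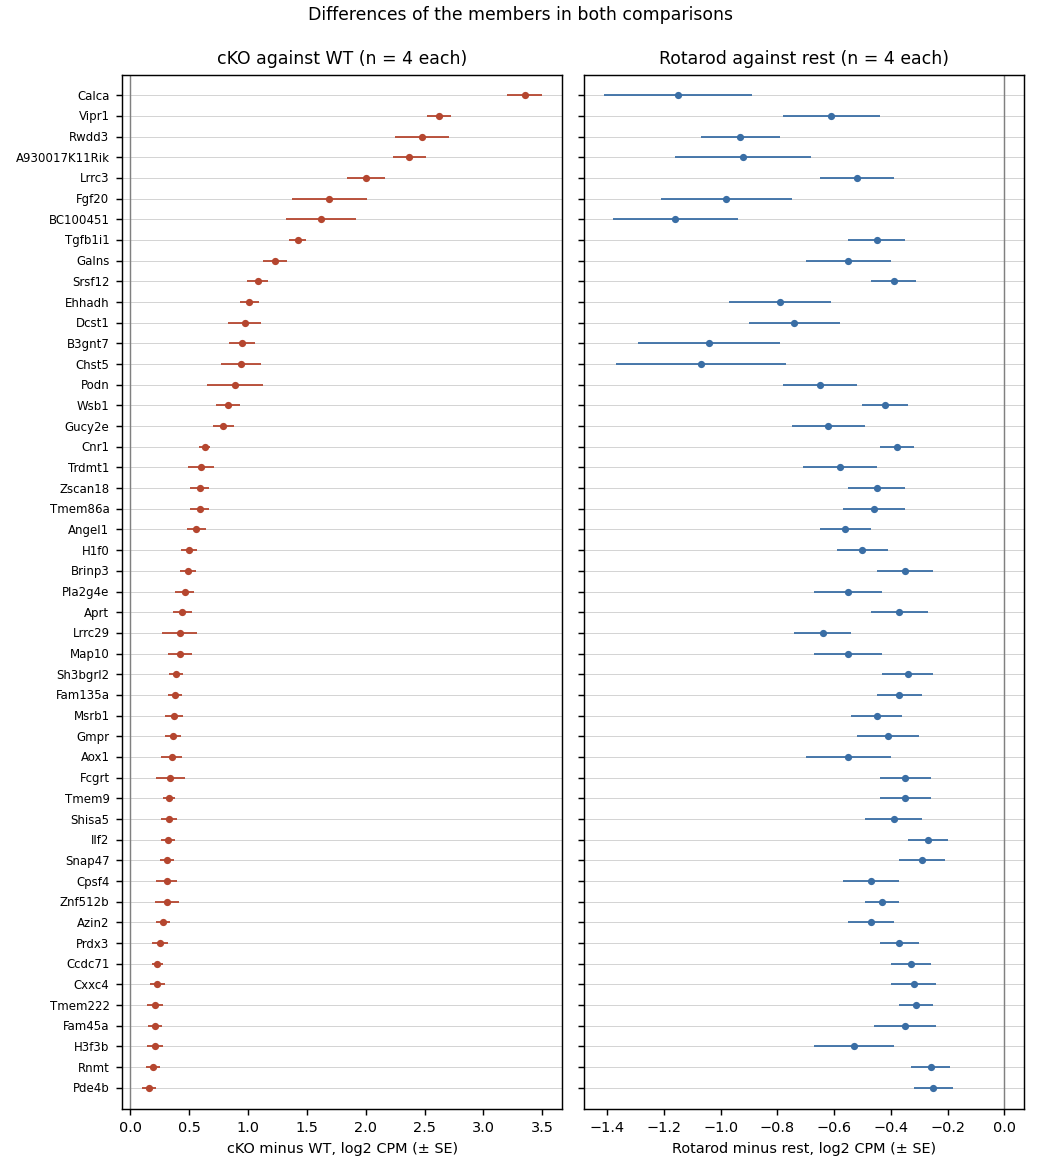
Difference of each of the 49 genes in cKO minus WT (left) and rotarod minus rest (right), in log2 CPM; points are means of 4 against 4 libraries and bars are ± 1 SE. Cnr1, at 0.63 and -0.38, has short bars, and Calca, at 3.35 and -1.15, lies farthest out on the left.

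Every cKO library lay above every WT library for 44 of the 49 members; this held for 82.4% of all genes listed as higher in cKO. Every rotarod library lay below every rest library for 46 members, against 87.0% of all genes listed as lower in rotarod. Groups were apart in both comparisons for 41 members, but the same share over all shared genes was not computed, so nothing is read from this count. Within each single comparison, groups apart were usual among listed genes and not particular to the members. The exceptions were Podn, Lrrc29, Fcgrt, Znf512b and Tmem222 in cKO and WT, and Chst5, Aox1 and Fam45a in rotarod and rest.

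Across the 49 genes, those with larger cKO differences tended to have larger training differences (Spearman rho -0.74, across genes, which are not independent replicates). The points share the gene's abundance, and low genes had the larger differences: rho with abundance was -0.63 for the cKO difference and 0.78 for the training difference. A gene with few reads is listed only when its difference is large, so the listing itself favours these relations. Among the 19 members at or above the median abundance of both tables, rho between the differences was -0.33. The difference was larger in size in cKO for 27 members and larger with training for 22.

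**Figure D2:**
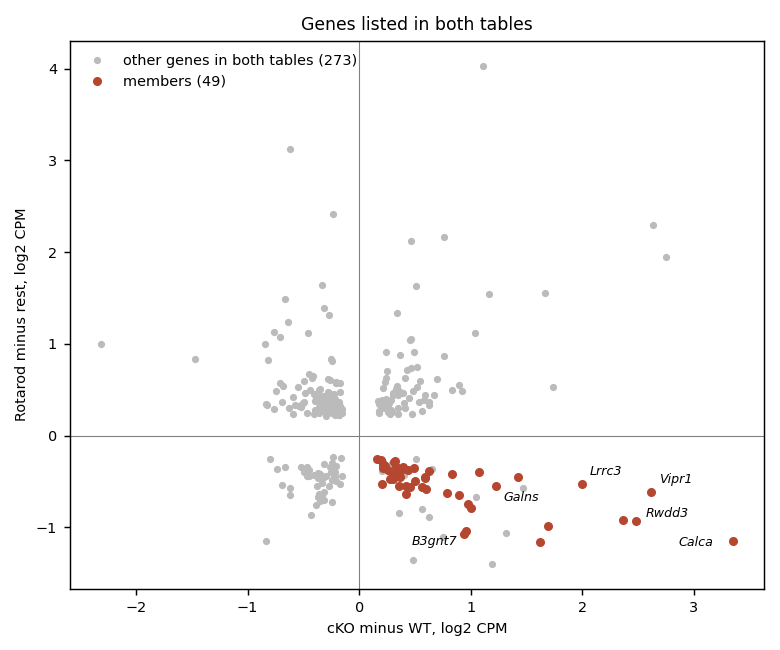
All 322 genes listed in both tables, by cKO minus WT (horizontal) and rotarod minus rest (vertical), in log2 CPM; each point is a gene. The 49 members lie at the lower right, which the rule defines, with Calca (3.35, -1.15) at its far end.

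Peptide, growth factor and receptor genes included Calca, with the largest fitted cKO difference. It encodes calcitonin and the neuropeptide CGRP. Calca stood at 1.77, 1.95, 2.01 and 1.86 log2 CPM in cKO libraries and at -1.31, -1.50, -1.13 and -1.88 in WT libraries, a difference of 3.35 ± 0.15. With training it was at -1.69, -1.96, -2.36 and -2.39 in rotarod libraries and -0.87, -1.07, -0.35 and -1.54 in rest libraries (-1.15 ± 0.26). The groups were apart in both comparisons, and the training values rest on 7 reads in all in rotarod and 24 in rest libraries, against 208 reads in cKO and 14 in WT. With training, its adjusted p in the authors' test was 0.0495, just under the listing limit.

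Vipr1 encodes VPAC1, a receptor for the peptides VIP and PACAP that raises cyclic AMP. Levels were 5.06, 5.09, 5.18 and 5.16 log2 CPM in cKO libraries and 2.39, 2.27, 2.63 and 2.72 in WT libraries, a 6.15-fold difference (2.62 ± 0.10). In rotarod libraries they were 2.35, 2.13, 2.74 and 2.97, and in rest libraries 3.17, 3.32, 3.04 and 3.11 (-0.61 ± 0.17). The cKO libraries were tightly grouped and far above WT, whereas with training the groups were separated by less than the spread within rotarod libraries.

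Fgf20, a secreted fibroblast growth factor, was near the limit of detection. All 4 WT and all 4 rotarod libraries had 0 reads, the floor of their tables at -2.87 and -2.95 log2 CPM. The cKO libraries stood at -0.63, -0.71, -2.26 and -1.12, from 20 reads in all, and the rest libraries at -2.40, -1.90, -1.25 and -2.31, from 8 reads in all. A bound was set with 3 reads over the group as the limit that a count of 0 allows, and with the 20 and 8 reads taken as exact. On that basis Fgf20 was at least 6.81-fold higher in cKO than in WT libraries. Rest libraries were at least 2.92-fold higher than rotarod libraries. Counting error in the 20 and 8 reads is left out, so the true ratios may be lower. Counting error alone is large at such levels.

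Cnr1 encodes CB1, the cannabinoid receptor on presynaptic terminals, which lowers cyclic AMP and transmitter release. It was the most abundant member, at 9.71 ± 0.06 log2 CPM in cKO and 9.09 ± 0.03 in WT libraries (SD, n = 4 each), a difference of 0.63 ± 0.05. It was at 8.66 ± 0.06 in rotarod and 9.04 ± 0.05 in rest libraries (-0.38 ± 0.06). Pla2g4e, an enzyme that makes the lipid precursors of the endocannabinoid anandamide, differed by 0.46 ± 0.08 and -0.55 ± 0.12. Both had groups apart in both comparisons.

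Gucy2e, a membrane guanylate cyclase known from photoreceptors, was at 2.70, 2.84, 2.61 and 2.72 log2 CPM in cKO libraries and 1.97, 2.01, 2.04 and 1.67 in WT libraries (0.79 ± 0.09). It was at 2.03, 2.24, 2.43 and 2.40 in rotarod libraries and 2.73, 3.08, 3.08 and 2.70 in rest libraries (-0.62 ± 0.13). Neither pair of groups overlapped. Pde4b, which breaks down cyclic AMP, had the smallest difference in both comparisons. It stood at 7.0, 7.14, 7.09 and 7.10 in cKO libraries and 6.86, 6.98, 6.97 and 6.87 in WT libraries (0.16 ± 0.06). With training it stood at 6.63, 6.60, 6.77 and 6.64 in rotarod libraries and 6.86, 7.0, 6.79 and 6.98 in rest libraries (-0.25 ± 0.07). The groups did not overlap, and the closest libraries were 0.02 log2 CPM apart in both comparisons.

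Pde4b also marks the edge of the rule's direction terms in both comparisons. Other members lay nearest the listing limit of 0.05. The highest adjusted p in the authors' test was 0.0464 in cKO (Lrrc29) and 0.0495 with training (Calca). Rsrp1 was just outside the direction terms, at -0.16 in cKO minus WT and -0.44 in rotarod minus rest. Phf21b was outside on the other term, at 0.47 and 0.23.

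Lrrc3, a leucine-rich repeat gene, was at 3.79, 3.96, 4.20 and 4.06 log2 CPM in cKO libraries and 2.04, 2.20, 2.21 and 1.55 in WT libraries, a 4.0-fold difference (2.0 ± 0.16). In rotarod libraries it was at 2.20, 1.98, 2.16 and 2.26, and in rest libraries at 2.33, 2.89, 2.83 and 2.65 (-0.52 ± 0.13). The cKO groups stood far apart, whereas the highest rotarod library was close to the lowest rest library. Brinp3, of a family of neural proteins induced by retinoic acid, differed by 0.49 ± 0.07 and -0.35 ± 0.10, and Fcgrt, the neonatal Fc receptor, by 0.34 ± 0.12 and -0.35 ± 0.09.

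Enzymes of sulfated sugar chains formed another group. B3gnt7 extends keratan sulfate chains, Chst5 adds sulfate to N-acetylglucosamine, and Galns is the lysosomal sulfatase that breaks down keratan and chondroitin sulfate. B3gnt7 was at 1.22, 0.81, 1.20 and 0.86 log2 CPM in cKO libraries and 0.18, 0.10, -0.04 and 0.03 in WT libraries (0.95 ± 0.11). It was at -0.46, -0.65, -0.95 and -0.57 in rotarod libraries and 0.85, 0.67, 0.37 and -0.37 in rest libraries (-1.04 ± 0.25). Neither pair of groups overlapped, and 1 rest library (column 6) lay close to the rotarod libraries.

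Chst5 was at 1.46, 1.43, 1.81 and 1.22 log2 CPM in cKO libraries and 0.95, 0.37, 0.57 and 0.29 in WT libraries (0.94 ± 0.17). Values were 0.12, -0.38, 0.30 and -0.57 in rotarod libraries and 0.20, 1.05, 1.57 and 0.94 in rest libraries (-1.07 ± 0.30). The cKO and WT libraries were apart, but rest column 1 lay below the highest rotarod library. Galns differed by 1.23 ± 0.10 and -0.55 ± 0.15, with groups apart in both. Podn, a small leucine-rich proteoglycan of the extracellular matrix, differed by 0.89 ± 0.24 and -0.65 ± 0.13, and its cKO and WT libraries overlapped.

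Galns lies next to Aprt, another member, on chromosome 8, with 0 protein-coding genes between them. Srsf12 and Cnr1 lie close on chromosome 4 with Pnrc1 and Rngtt between them. Among the 46 members found in the RefSeq annotation, no others were within 4 protein-coding genes of each other.

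**Figure D3:**
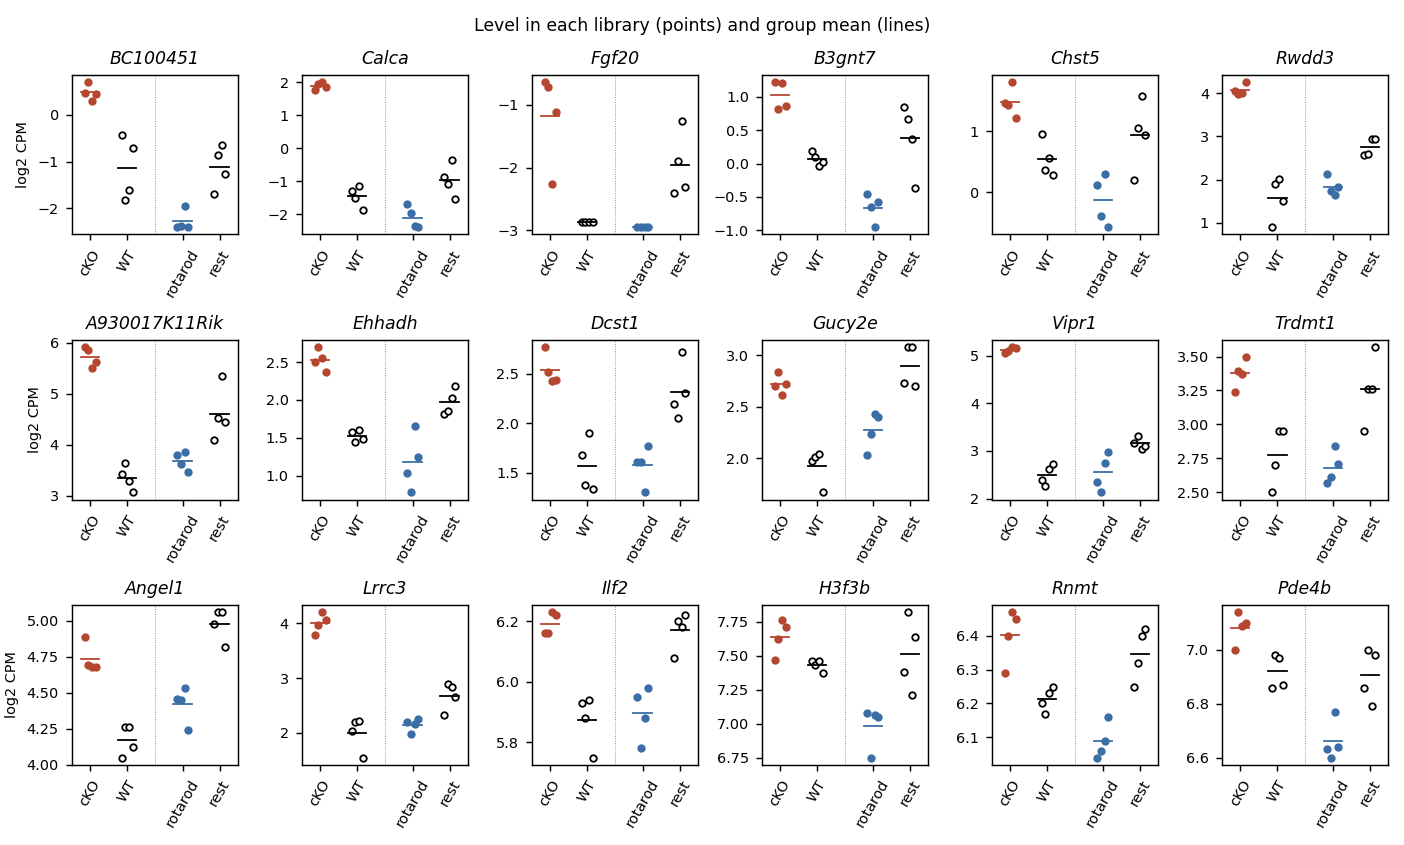
Level of 18 members in each library (points) and group mean (lines), in log2 CPM, with its own vertical scale for each gene; cKO stands left of WT and rotarod left of rest. Fgf20 sits on the floor in all WT and rotarod libraries, and the 4 Vipr1 values in cKO, 5.06 to 5.18, stand clear of every other library.

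Genes for chromatin and transcription factors had mostly moderate differences. H1f0, the linker histone of differentiated cells, was at 7.79 ± 0.12 log2 CPM in cKO and 7.29 ± 0.06 in WT libraries, and at 7.67 ± 0.15 in rotarod and 8.16 ± 0.08 in rest libraries (SD, n = 4 each), differences of 0.50 ± 0.07 and -0.50 ± 0.09. H3f3b encodes the replacement histone H3.3 and has processed copies in the genome that can share its reads, so its values are uncertain. It was at 7.47, 7.62, 7.76 and 7.71 in cKO libraries and 7.46, 7.43, 7.46 and 7.37 in WT libraries (0.21 ± 0.07). It was at 7.08, 6.75, 7.06 and 7.05 in rotarod libraries and 7.38, 7.82, 7.21 and 7.64 in rest libraries (-0.53 ± 0.14). The lowest cKO library was barely above WT, while every rotarod library was below every rest library.

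Rwdd3, which promotes the attachment of SUMO to proteins, had 1 of the largest differences. Its levels were 4.04, 3.98, 3.99 and 4.26 log2 CPM in cKO libraries and 0.90, 1.90, 2.02 and 1.51 in WT libraries, a 5.59-fold difference (2.48 ± 0.23). They were 2.13, 1.73, 1.64 and 1.82 in rotarod libraries and 2.57, 2.59, 2.93 and 2.93 in rest libraries (-0.93 ± 0.14). Both comparisons had groups well apart, and the WT libraries were the most scattered.

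Tgfb1i1, a LIM protein of focal adhesions that also acts as a coactivator of nuclear receptors, differed by 1.42 ± 0.07 and -0.45 ± 0.10. The zinc finger genes Zscan18 (0.59 ± 0.08 and -0.45 ± 0.10) and Znf512b (0.31 ± 0.10 and -0.43 ± 0.06) and the CXXC zinc finger gene Cxxc4, an inhibitor of Wnt signalling (0.23 ± 0.06 and -0.32 ± 0.08), followed. Ilf2, the NF45 partner of double-stranded RNA binding proteins, was at 6.16, 6.16, 6.23 and 6.22 log2 CPM in cKO libraries and 5.93, 5.88, 5.94 and 5.75 in WT libraries (0.32 ± 0.06). It was at 5.95, 5.78, 5.88 and 5.98 in rotarod libraries and 6.08, 6.20, 6.18 and 6.22 in rest libraries (-0.27 ± 0.07). These differences were small but larger than the spread within any of the 4 groups.

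RNA-processing members act on caps, tails, tRNA and splicing. Trdmt1, a tRNA cytosine methyltransferase, was at 3.24, 3.39, 3.37 and 3.50 log2 CPM in cKO libraries and 2.50, 2.70, 2.95 and 2.95 in WT libraries (0.60 ± 0.11). It was at 2.57, 2.61, 2.84 and 2.71 in rotarod libraries and 2.95, 3.26, 3.26 and 3.57 in rest libraries (-0.58 ± 0.13). Angel1, of the family of the CCR4 nuclease, was at 4.89, 4.69, 4.68 and 4.68 in cKO libraries and 4.05, 4.26, 4.26 and 4.12 in WT libraries (0.56 ± 0.08). Neither gene had overlapping cKO and WT groups.

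In rotarod libraries Angel1 was at 4.46, 4.45, 4.53 and 4.24 log2 CPM, and in rest libraries at 4.98, 5.06, 5.06 and 4.82 (-0.56 ± 0.09). Its differences were thus equal in size in both comparisons. Rnmt, which methylates the mRNA cap, was at 6.29, 6.40, 6.47 and 6.45 in cKO libraries and 6.20, 6.17, 6.23 and 6.25 in WT libraries (0.19 ± 0.06). With training it was at 6.04, 6.06, 6.09 and 6.16 in rotarod libraries and 6.25, 6.32, 6.40 and 6.42 in rest libraries (-0.26 ± 0.07). Rnmt was among the members with the smallest differences, and its groups were apart, as for most listed genes. Srsf12, an SR splicing protein, differed by 1.08 ± 0.09 and -0.39 ± 0.08, and Cpsf4, of the polyadenylation complex, by 0.31 ± 0.09 and -0.47 ± 0.10.

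Metabolic members were led by Ehhadh, a peroxisomal enzyme of fatty acid oxidation. It was at 2.50, 2.70, 2.56 and 2.37 log2 CPM in cKO libraries and 1.58, 1.45, 1.60 and 1.48 in WT libraries (1.01 ± 0.08). It was at 1.03, 0.78, 1.66 and 1.25 in rotarod libraries and 1.82, 1.85, 2.02 and 2.19 in rest libraries (-0.79 ± 0.18). Groups were apart in both, with a wide spread in rotarod libraries. The purine enzymes Aprt, which salvages adenine, and Gmpr, which turns GMP into IMP, differed by 0.44 ± 0.08 and 0.36 ± 0.07 in cKO and by -0.37 ± 0.10 and -0.41 ± 0.11 with training.

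Redox enzymes were Msrb1, a methionine sulfoxide reductase (0.37 ± 0.08 and -0.45 ± 0.09), the mitochondrial peroxiredoxin Prdx3 (0.25 ± 0.07 and -0.37 ± 0.07) and the aldehyde oxidase Aox1 (0.35 ± 0.09 and -0.55 ± 0.15). Azin2, which raises polyamine synthesis by blocking antizyme, differed by 0.28 ± 0.06 and -0.47 ± 0.08, and Tmem86a, a lysoplasmalogenase, by 0.59 ± 0.08 and -0.46 ± 0.11. Of these metabolic genes, Aox1 alone had overlapping rotarod and rest libraries, and none had overlapping cKO and WT libraries.

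Among the other members, Wsb1, a substrate receptor of a ubiquitin ligase, was at 7.24 ± 0.19 log2 CPM in cKO and 6.41 ± 0.09 in WT libraries, and at 6.51 ± 0.11 in rotarod and 6.93 ± 0.08 in rest libraries (SD, n = 4 each), differences of 0.83 ± 0.10 and -0.42 ± 0.08. Dcst1, of a family of membrane proteins with a DC-STAMP domain, was at 2.77, 2.52, 2.43 and 2.44 in cKO libraries and 1.68, 1.37, 1.90 and 1.33 in WT libraries (0.97 ± 0.14). It was at 1.61, 1.61, 1.30 and 1.77 in rotarod libraries and 2.19, 2.05, 2.72 and 2.30 in rest libraries (-0.74 ± 0.16), with groups apart in both. Snap47, a SNARE protein, differed by 0.31 ± 0.06 and -0.29 ± 0.08, Map10, a microtubule-associated protein, by 0.42 ± 0.10 and -0.55 ± 0.12, and Lrrc29, an F-box gene, by 0.42 ± 0.15 and -0.64 ± 0.10.

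A930017K11Rik, a gene with no role given here, was at 5.92, 5.86, 5.51 and 5.62 log2 CPM in cKO libraries and 3.43, 3.65, 3.29 and 3.07 in WT libraries (2.37 ± 0.14). It was at 3.80, 3.63, 3.86 and 3.47 in rotarod libraries and 4.09, 4.53, 5.35 and 4.45 in rest libraries (-0.92 ± 0.24). Groups were apart in both, and rest column 5 was far above the other rest libraries. It overlaps the long noncoding gene D630044L22Rik, which differed by 0.56 in cKO minus WT, and the strand used in counting is not given in the sources used here, so reads of overlapping genes cannot be told apart.

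BC100451, also with no role given here, was at 0.46, 0.70, 0.28 and 0.45 log2 CPM in cKO libraries and -0.44, -1.83, -1.60 and -0.71 in WT libraries (1.62 ± 0.30). It was at -2.40, -2.37, -1.95 and -2.39 in rotarod libraries and -1.69, -0.87, -0.65 and -1.27 in rest libraries (-1.16 ± 0.22). Its training values rest on 5 reads in all in rotarod and 20 in rest libraries. The 7 remaining members, Sh3bgrl2, Fam135a, Tmem9, Shisa5, Ccdc71, Tmem222 and Fam45a, had cKO differences of 0.21 to 0.39 and training differences of -0.39 to -0.31. In the RefSeq annotation 19 of 46 members found there overlap another gene, and for 2 the partner is itself listed: A930017K11Rik, and Tmem9, whose partner Igfn1 differed by -0.57 in cKO minus WT.

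Pathway lists held 3 of the members. Of 594 genes in 13 pathway lists, 133 were higher and 133 lower in cKO, and 50 were higher and 18 lower in rotarod. The members among them were Cnr1 and Pde4b in G protein signalling and H3f3b in chromatin. They are 16.7% of the list genes lower in rotarod, near the 13.9% that members make up of all 353 genes listed as lower in rotarod. In the G protein list of 68 genes, 21 were higher and 13 lower in cKO, and 0 were higher and 3 lower in rotarod. The chromatin list of 51 genes had 9 higher and 8 lower in cKO, and 5 higher and 4 lower in rotarod. The list of 24 activity-dependent transcription factors held no member: 10 were higher and 3 lower in cKO, and 16 were higher and 0 lower in rotarod.

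None of 128 markers in 11 lists of cerebellar and other cell types was a member. Markers in the families left out, such as Slc17a7 and Sox10, could not be members. Only 7 markers were listed as lower in rotarod, so a count of 0 says little. In cKO 6 of the 128 markers were listed as higher and 60 as lower. The summed level over the 66 listed was 22983 to 23506 CPM in cKO and 25973 to 27678 CPM in WT libraries. In rotarod 3 were listed as higher and 7 as lower, with 1505 to 1796 CPM in rotarod and 1813 to 2151 CPM in rest libraries over the 10 listed. Of the 13 meningeal and fibroblast markers, 9 were lower in cKO and 5 lower in rotarod, at 98.7 to 133 CPM in rotarod and 147 to 186 CPM in rest libraries over the listed ones. Lower markers in cKO were not particular to that list: 10 of 12 Purkinje cell, 7 of 12 inhibitory interneuron and 8 of 14 vascular markers were lower. For these lists 0, 1 and 0 were higher. Of 8 unipolar brush cell markers, 5 were lower and 1 higher, yet their sum was higher in cKO (1332 to 1469 against 1093 to 1148 CPM in WT). No listed marker was at 0 reads in a whole group. The listing chose the summed markers by their difference, mostly lower ones in both comparisons, so lower sums follow in large part from it. Markers not listed have no value, so the sums do not measure cell content. The part of cell content in the members' differences was not tested.

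The only other RNA tables, from day 12 cerebella, hold Sync-TRAP RNA, which is captured with tagged ribosomes, and list 38 of about 25600 tested features for cKO against WT (0.148%) and 51 of about 26200 for pull-down against input (0.195%). None of the 49 genes was in either, which at these shares says nothing about the members.

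Setting the tables side by side showed where WT libraries stood. Both tables include wild-type mice of the same age, but the labels do not give the training or handling of the WT mice. The tables were also normalized separately, so levels across them are only approximate. The median level of the 49 genes in WT libraries was 0.37 log2 CPM below rest (-0.37), with WT below rest for 46 genes and above for 3, and it was 0.09 above rotarod. WT was nearer to rotarod than to rest for 35 genes and nearer to rest for 14. The cKO level was 0.17 above rest and 0.66 above rotarod, and nearer to rest than to rotarod for 45. The rule favours low WT and high rest levels, so these counts follow in part from the choice of genes.

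**Figure D4:**
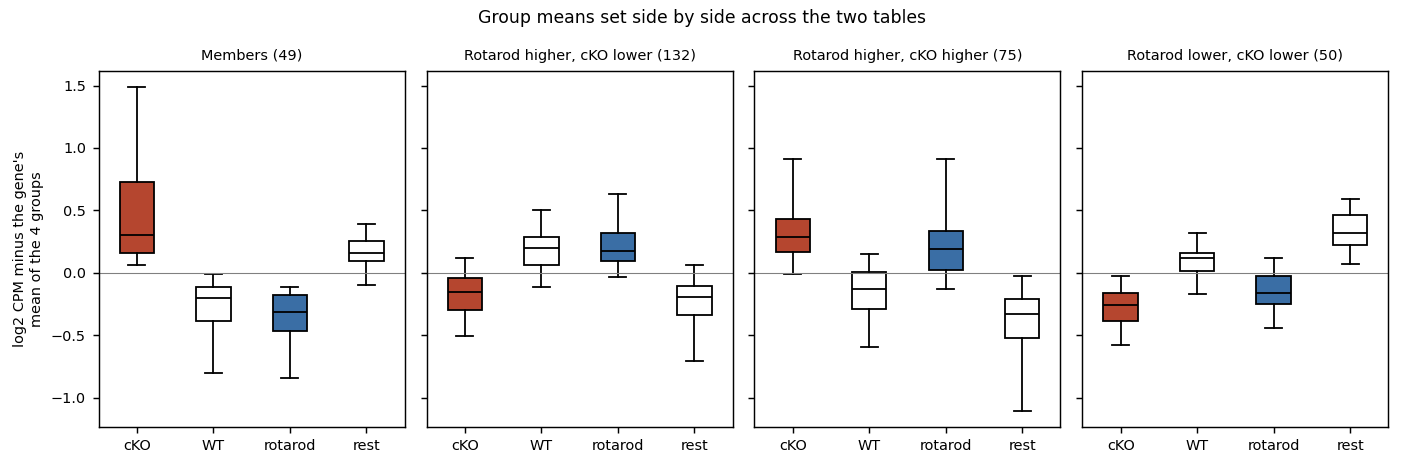
Group means in log2 CPM minus the gene's own mean over the 4 groups, for the 49 members and the other 3 combinations of direction among the shared genes; boxes are quartiles with the median and whiskers run from the 5th to the 95th percentile of genes. For the members WT lies near rotarod and cKO nearest to rest, across tables that were normalized separately.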

How the data were processed

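Each deposited table gives log2 CPM per library, computed by the authors with a prior count, beside the authors' log2 fold change, p-value and adjusted p-value, per the file headers. Reads were processed with Bowtie, edgeR, SICER and bedtools on build mm9, per the submitters' processing notes. Not given in the sources used here: versions, counting program and strand setting. By the deposited p-values, every listed gene has an adjusted p below 0.05, and genes not listed have no value. Numbers of features tested were read from adjusted p, rank and p. Repeated lines for a gene were removed (5557 to 5508 genes for cKO and WT, 913 to 908 for rotarod and rest).

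All listed genes of a table entered 1 limma fit (limma 3.58.1, R 4.3.3) of the deposited log2 values, which gave differences and SE. The fit was checked on data simulated with the spread of the same listed genes. That check cannot show how the listing affects SE. No member was tested. Read numbers were recovered from the steps above the floor, within 0.1 read. Promoter, name and overlap tables are RefSeq GRCm38.p6 and were joined by symbol or identifier (49 of 49 names found). Region lists were not used.

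The members, lists and motifs were chosen with earlier results of these data known. Values of every library are printed for the 12 members with the largest smaller-of-both differences and groups apart, the 6 largest and the 3 smallest in each table; other members are given by means or differences. The design foresaw counts as a possibility; the tables hold log2 values, so no count model was run. Replicate numbers shared by cKO and WT were not taken as pairs: same-numbered deviations correlated at 0.085 to 0.16, not above 0.1 for every pair. By number, cKO and WT libraries within 1 and 2, or within 3 and 4, correlated at 0.03 to 0.184. Across these sets the correlations were -0.163 to 0.031. The labels do not say what such libraries share, and this was not tested. Alternatives were stricter thresholds, pseudocounts, abundance limits, a replicate block, other promoter windows, and libraries left out. The limit of 3 reads set for a count of 0 covers the counting error of that 0 only.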

Additional observations from a re-analysis of the deposited data

Results flagged for a closer look

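In 6 of 196 groups of 4 libraries, 1 library stood apart from the other 3 by Dixon's test, which chance alone flags in about 1 of 20 groups. WT library 1 was the high one for 3 genes: Msrb1 at 4.04 log2 CPM (others 3.86 to 3.89), Sh3bgrl2 at 5.41 (others 5.25 to 5.27) and Tmem222 at 5.69 (others 5.43 to 5.44). For Tmem222 this library is the one that overlaps the cKO libraries. Angel1 was at 4.89 in cKO library 1 (others 4.68 to 4.69). BC100451 was at -1.95 in rotarod column 7 (others -2.40 to -2.37), a difference of few reads. H3f3b was at 6.75 in rotarod column 4 (others 7.05 to 7.08).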

How the results depend on the processing

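Of 79 alternatives, 71 left a result within its limits, 8 moved it and 0 reversed a direction. Many of the 71 left out 1 library and could hardly lower a count, as described below. With the authors' adjusted p at most 0.01 in both tables, 22 members were left, and at most 0.001, 8. A pseudocount of 5 CPM gave medians of 0.30 in cKO minus WT and -0.32 in rotarod minus rest. Members at or above the median abundance had a cKO median of 0.31. Their groups were apart for 18 of 20 in cKO and WT and for 22 of 23 in rotarod and rest. Over all listed genes of the same direction, at any abundance, the shares were 82.4% and 87.0%. Chosen after seeing the data, the median from cKO and WT libraries 1 and 2 alone was 0.57, and from 3 and 4 alone 0.48; columns 1 to 4 and 5 to 8 of the rotarod table gave -0.45 and -0.48, and all 49 members kept their direction in each. Leaving out 1 library at a time, the members stayed at 49 and the medians ran from 0.42 to 0.49 and from -0.50 to -0.44. Groups were apart for 44 to 46 and 46 to 49 members. Members were chosen by direction in these same libraries, and leaving out a library cannot make groups overlap. The counts of kept directions, members and groups apart could thus hardly fall. With Fgf20 at its bound the medians were unchanged, at 0.46 and -0.46. Few reads limit BC100451, Calca, Fgf20 and B3gnt7, each under 40 reads over a group.

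With the replicate number as a block, the median SE of the cKO difference was 0.078, against 0.080 without it. Of the 8 cKO and WT libraries, 5 correlated best with their own number. For rotarod and rest, no paired analysis was possible because the columns carry no replicate number of a sample.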

Other observations

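Shared genes with other directions were also set across the separately normalized tables. For the 132 genes higher in rotarod and lower in cKO, WT was above rest for 119 and below for 13, with a median of 0.41 above rest and 0.01 above rotarod, and nearer to rotarod than to rest for 101. For the 75 genes higher in both, WT was 0.22 above rest, and nearer to rotarod for 36 and to rest for 39. For the 50 genes lower in both, WT was -0.23 from rest, and nearer to rotarod for 25 and to rest for 25. As for the 49 genes, each of these choices of direction favours particular WT and rest levels.

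Of the 276 genes lower in rotarod that met the other terms, 36 were lower in cKO (13.0%), 190 were not listed in cKO and 50 were higher in cKO, namely the 49 genes and Hist2h2bb. The 49 genes are 17.8% of the 276, and 2.03% of the 2412 genes higher in cKO.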
